A study of Mus musculus with 8 samples.

Results

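The genes described here encode the enzymes that bring pyruvate into the mitochondrion and oxidise it, the enzymes of the tricarboxylic acid cycle, and those that exchange malate and pyruvate with the cycle. They were taken by mouse symbol, 34 of the 54532 genes counted, and were read in 3 groups: 13 genes of pyruvate entry, 16 of the cycle and 5 for malic enzymes, cytosolic malate dehydrogenase and anaplerosis, the refilling of the cycle. RNA came from the quadriceps of mice aged 3 months on chow diet. All 8 libraries came from mice that carried the floxed Gpcpd1 allele on both chromosomes. The 4 control libraries came from mice without Cre (Gpcpd1 Flox/Flox, Mck Cre negative). The 4 knockout libraries (MckCre Gpcpd1) came from mice with Mck Cre, a recombinase driven by the muscle creatine kinase promoter. Cre and the loss of Gpcpd1 therefore cannot be told apart, and cells of the muscle that do not use this promoter keep the gene. The labels do not say whether each library came from its own animal, so each p-value reflects the spread among libraries, part of which may be technical.

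Pyruvate made by glycolysis crosses the inner mitochondrial membrane through a carrier built of Mpc1 and Mpc2. The pyruvate dehydrogenase complex then converts it to acetyl-CoA. Pyruvate dehydrogenase kinases switch the complex off by phosphorylation and the phosphatases Pdp1 and Pdp2 switch it on again, which is a main point where muscle chooses between glucose and fat as fuel. Citrate synthase joins acetyl-CoA to oxaloacetate, and the cycle returns oxaloacetate while giving electrons to the respiratory chain. Malic enzymes and pyruvate carboxylase move carbon between malate, oxaloacetate and pyruvate.

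The libraries held between 4404116 and 5405999 reads. Values are TMM-scaled CPM, the reads of a gene set against the scaled library total. The 3′ protocol (QuantSeq) is built to give 1 read position per transcript whatever its length. A floor of 3 reads stood at 0.557 to 0.646 CPM, which covers counting error only. Gpcpd1 itself, which encodes a glycerophosphodiesterase, stood at 134.7 to 158.5 CPM in controls and 30.4 to 38.6 in knockouts, although 3′ reads may lie outside the deleted part. Of 8 skeletal muscle markers all 8 were tested, and their summed level was 146784 to 163337 CPM in controls and 157392 to 161230 in knockouts. Single markers did differ within that sum, with 2 higher and 1 lower in the knockout (edgeR adjusted p under 0.05). These are 37.5% of the 8, against 15.7% of all tested genes. Because the tissue was sequenced in bulk, fewer cells of a type and less RNA per cell cannot be told apart.

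The transcripts of isocitrate dehydrogenase 2 (Idh2), malic enzyme 3 (Me3), pyruvate dehydrogenase kinase 1 (Pdk1) and the E1 beta subunit Pdhb rose in the knockout, and those of the phosphatase Pdp2 and of pyruvate carboxylase (Pcx) fell. The mean level reached 186.1% of control for Idh2, 159.8% for Me3 and 155.9% for Pdk1, and 61.5% for Pdp2 and 72.6% for Pcx (n = 4 each). In all, 32 of the 34 genes had enough reads to be tested, and 9 were higher and 2 lower in the knockout (edgeR quasi-likelihood F test, adjusted p under 0.05, here named the threshold). The share called over all 10691 tested genes was 15.7%, with 8.87% higher and 6.8% lower. These genes were more abundant than most, with a median level of 215.6 CPM against 14.7 over all tested genes. Of the 28 with a mean of at least 20 CPM, 9 were called, against 23.3% of all tested genes at that level. The log2 fold change was above 0 in 24 of the 32, with a median of 0.19 against 0.01 over all tested genes. Knockout and control libraries did not overlap in 11 of the 32, against 19.2% of all tested genes. Of the 11 called genes, 6 had the call under every alternative analysis and leave-one-out fit (Pdhb, Pdk1, Pdp2, Idh2, Me3 and Pcx), and 5 lost it in at least 1.

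**Figure D1:**
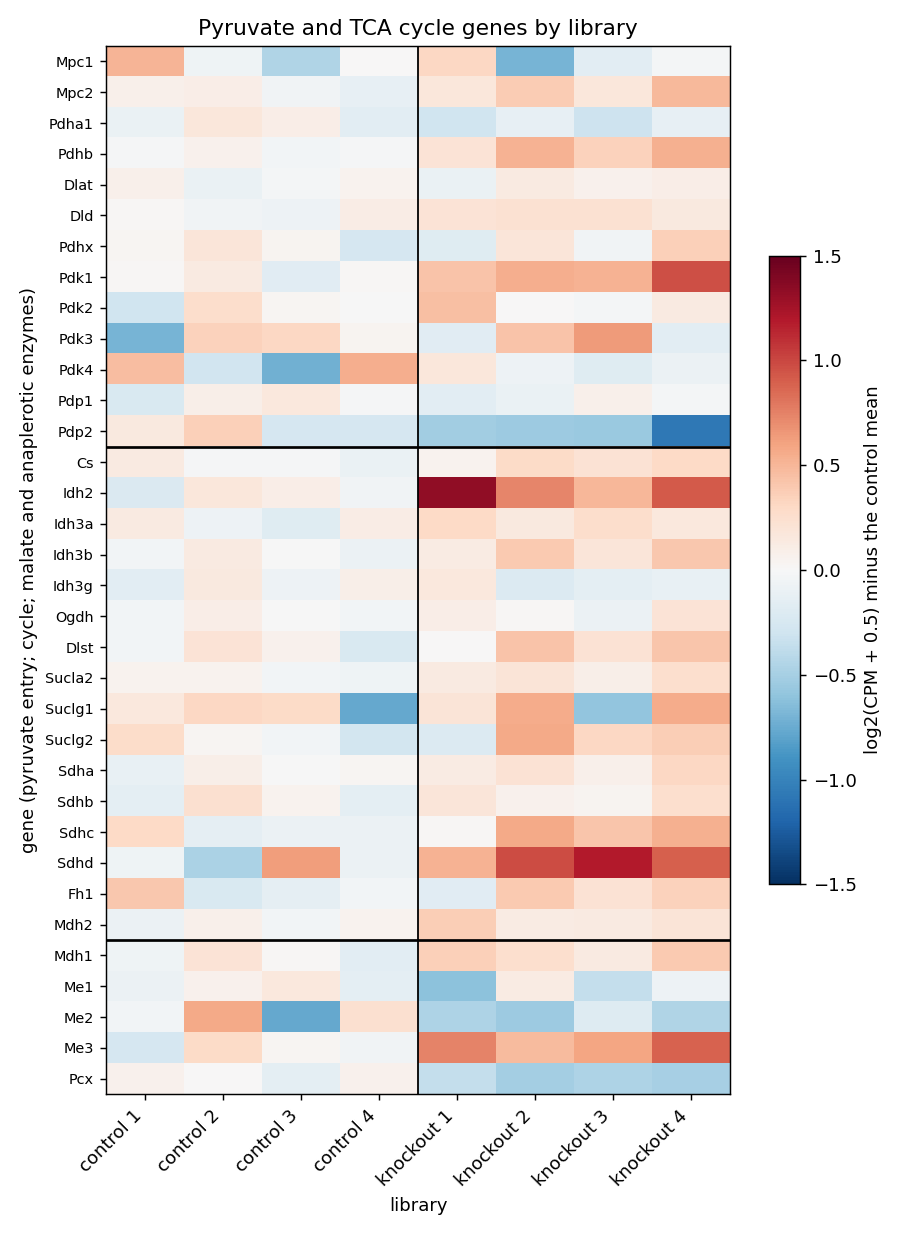
Level of each of the 34 genes (rows) in each of the 8 libraries (columns), as log2(CPM + 0.5) minus the mean of the 4 controls, with horizontal lines between pyruvate entry, the cycle, and the malate and anaplerotic enzymes. Idh2, Pdk1 and Me3 are above the control mean in all 4 knockouts, and Pdp2 and Pcx are below it in all 4, while Suclg1 is low in control 4 and knockout 3.

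Upstream sequences are shown for 4 called genes that act on pyruvate or on the pyruvate dehydrogenase complex and whose groups did not overlap, Pdk1 and Pdhb, which rose, and Pdp2 and Pcx, which fell. They were picked by hand, and the carrier gene Mpc2, which rose, also meets these terms and is not shown. The windows are from RefSeq on GRCm38.p6. They end before both the RefSeq start and the annotated gene and read 5′ to 3′ toward the gene. Capitals mark an E-box (CACGTG) or a CCAAT box (CCAAT, or ATTGG when on the other strand), and no marked match overlaps another.
Pdk1 (chr2:71872974-71873223, plus strand): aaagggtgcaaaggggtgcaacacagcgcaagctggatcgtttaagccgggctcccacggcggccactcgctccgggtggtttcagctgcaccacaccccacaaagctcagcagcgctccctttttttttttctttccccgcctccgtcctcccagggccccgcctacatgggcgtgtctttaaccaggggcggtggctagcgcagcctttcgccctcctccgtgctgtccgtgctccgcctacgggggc
Pdhb (chr14:8173026-8173242, minus strand): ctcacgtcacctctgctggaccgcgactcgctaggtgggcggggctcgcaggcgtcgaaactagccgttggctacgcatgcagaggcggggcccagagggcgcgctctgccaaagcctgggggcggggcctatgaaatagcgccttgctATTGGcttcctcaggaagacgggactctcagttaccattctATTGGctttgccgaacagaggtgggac
Pdp2 (chr8:104591222-104591450, plus strand): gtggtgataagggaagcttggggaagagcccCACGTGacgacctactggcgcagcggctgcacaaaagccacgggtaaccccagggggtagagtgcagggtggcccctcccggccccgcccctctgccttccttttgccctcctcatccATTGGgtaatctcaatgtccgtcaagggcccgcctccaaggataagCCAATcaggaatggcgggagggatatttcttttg
Pcx (chr19:4510222-4510471, plus strand): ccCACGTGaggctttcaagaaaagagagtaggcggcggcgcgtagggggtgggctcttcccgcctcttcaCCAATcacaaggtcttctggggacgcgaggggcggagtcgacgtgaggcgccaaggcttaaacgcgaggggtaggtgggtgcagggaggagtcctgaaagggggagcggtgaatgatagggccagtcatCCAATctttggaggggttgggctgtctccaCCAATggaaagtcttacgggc

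The Pdk1 window held none of the 5 motifs searched on both strands, and the Pdhb window as shown, of 217 bases, held 2 CCAAT boxes. The full window of 250 bases for Pdhb held another CCAAT box nearer the start. The Pdp2 window held 2 CCAAT boxes and 1 E-box, and the Pcx window 3 CCAAT boxes and 1 E-box. In Mpc2, not shown, there was a CCAAT box and no E-box. Windows of 250 bases were found for 30 of the 34 genes, 40 windows in all since some genes have several starts. The E-box stood in 6 of these 40 and in 6.02% of all 32851 RefSeq windows, and the CCAAT box in 22 of the 40 and in 33.9% of all. Counted by gene, the E-box stood in 4 of the 30 (Ogdh, Pcx, Pdk2 and Pdp2) and the CCAAT box in 19. Windows of 1 gene can overlap and hold the same match, as some of Ogdh do, so the window counts are not independent. They were not tested against the shares. The cAMP response element TGACGTCA stood in windows of Mdh2 and Ogdh and in 1.55% of all windows, and the nuclear respiratory factor 1 element GCGCATGCG in windows of Ogdh and in 1.45%. The estrogen-related receptor element TCAAGGTCA stood in 0 of the 40 and in 0.387% of all. These matches describe the letters of the windows.

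In pyruvate entry, 3 of 12 tested genes were higher (Mpc2, Pdhb and Pdk1) and 1 lower (Pdp2), and the median log2 fold change was 0.07. The called genes are 33.3% of the 12, against 15.7% of all tested genes and 23.3% of those with a mean of at least 20 CPM. Mpc2, the more highly counted carrier subunit, stood at 266.0, 269.6, 242.0 and 231.6 CPM in controls 1 to 4 and at 284.5, 328.8, 284.1 and 351.8 in knockouts 1 to 4. Every knockout was above every control, and the mean went from 252.3 ± 18.4 to 312.3 ± 33.7 CPM (mean ± SD of 4; log2 fold change 0.31, SE 0.09, edgeR adjusted p = 0.0189). The Mpc2 call was lost without knockout 2 (adjusted p = 0.0661), knockout 4 (0.119), control 3 (0.0787) or control 4 (0.0591), over a range of 0.0102 to 0.119 in all its alternatives. Its partner Mpc1 had 11.2 ± 3.30 CPM in controls and 10.1 ± 2.94 in knockouts, with a 95% interval of -0.61 to 0.31 for its log2 difference.

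The pyruvate dehydrogenase complex is built of a decarboxylase (E1, from Pdha1 and Pdhb), the acetyltransferase Dlat (E2), the dehydrogenase Dld (E3) and the tethering subunit Pdhx. Pdhb (GRCm38 chromosome 14, 8165996 to 8173025, minus strand) stood at 89.8, 95.3, 88.7 and 90.0 CPM in controls and at 105.2, 130.2, 115.6 and 132.3 in knockouts. The controls lay close together and every knockout was higher, with a log2 fold change of 0.41 (SE 0.09, edgeR adjusted p = 0.00215). Pdha1, the other E1 subunit, had a value of opposite sign, 407.0 ± 43.9 CPM in controls and 350.3 ± 26.1 in knockouts (mean ± SD of 4; log2 fold change -0.22, SE 0.09, edgeR adjusted p = 0.107), and its groups overlapped. Pdha1 passed the threshold with library totals alone (adjusted p = 0.0251) and without control 4 (0.0419), within a range of 0.0251 to 0.258 over its alternatives. Within a library, the ratio of Pdhb to Pdha1 was 0.238, 0.209, 0.205 and 0.248 in controls 1 to 4 and 0.319, 0.350, 0.355 and 0.354 in knockouts 1 to 4. Both subunits of this enzyme thus stood in a different proportion of reads in every knockout, a pair chosen after its values were seen and not tested. Dlat (log2 fold change 0.05, 95% interval -0.14 to 0.24) and Pdhx (0.08, -0.15 to 0.32) did not pass the threshold. Dld, which the complex shares with 2-oxoglutarate dehydrogenase, stood at 70.7 to 80.1 CPM in controls and 82.1 to 86.9 in knockouts, without overlap, but missed the threshold (log2 fold change 0.20, edgeR adjusted p = 0.121).

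The kinases and phosphatases of the complex moved unequally. Pdk1 (chromosome 2, 71873224 to 71903858, plus strand), a kinase that inhibits the complex, stood at 22.2, 23.9, 19.4 and 22.1 CPM in controls and at 29.5, 32.1, 31.6 and 43.3 in knockouts. All knockouts were above all controls, knockout 4 the farthest, and the test gave a log2 fold change of 0.64 (SE 0.13, edgeR adjusted p = 0.00108). Knockout 4 was also the lowest library for Pdp2. Without it the log2 fold change of Pdk1 was 0.50, the lowest of its leave-one-out range of 0.50 to 0.69. Pdp2 (chromosome 8, 104591451 to 104599026, plus strand), a phosphatase that activates the complex, stood at 26.1, 30.2, 19.6 and 19.5 CPM in controls and at 16.1, 15.9, 15.8 and 10.9 in knockouts. Every knockout was below every control, with a log2 fold change of -0.70 (SE 0.16, edgeR adjusted p = 0.0036). Controls 1 and 2 of Pdp2 were well above controls 3 and 4, and knockout 4 was below the other knockouts. The ratio of Pdk1 to Pdp2 ran from 0.792 to 1.13 in controls and from 1.83 to 3.98 in knockouts, a pair also chosen after its values were seen and not tested.

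The other regulators of the complex did not pass the threshold. Pdk2 gave most kinase reads, 503.4 ± 80.1 CPM in controls and 553.9 ± 88.7 in knockouts (mean ± SD of 4; log2 fold change 0.14, 95% interval -0.11 to 0.38). Pdk4, the kinase known to rise in fasting, stood at 55.1, 32.6, 23.9 and 58.2 CPM in controls and at 44.8, 37.6, 35.1 and 37.3 in knockouts. Its knockouts all lay within the range of the controls, which ranged widely, and the interval of its log2 difference was wide, -0.80 to 0.55. Pdk3 had 2 to 10 reads per library and was not tested. The phosphatase Pdp1 had 58.0 ± 6.59 CPM in controls and 55.7 ± 4.15 in knockouts (log2 fold change -0.06, 95% interval -0.26 to 0.15). In sum, the 4 kinases stood at 482.7 to 658.6 CPM in controls and 557.2 to 756.8 in knockouts, and Pdp1 with Pdp2 at 75.4 to 91.4 and 67.4 to 76.9, so both sums overlapped between the groups. Pdk2 supplied 83.9% to 92.0% of kinase reads in controls and 87.0% to 90.1% in knockouts, and Pdk1 3.49% to 4.60% and 3.90% to 6.90%.

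**Figure D2:**
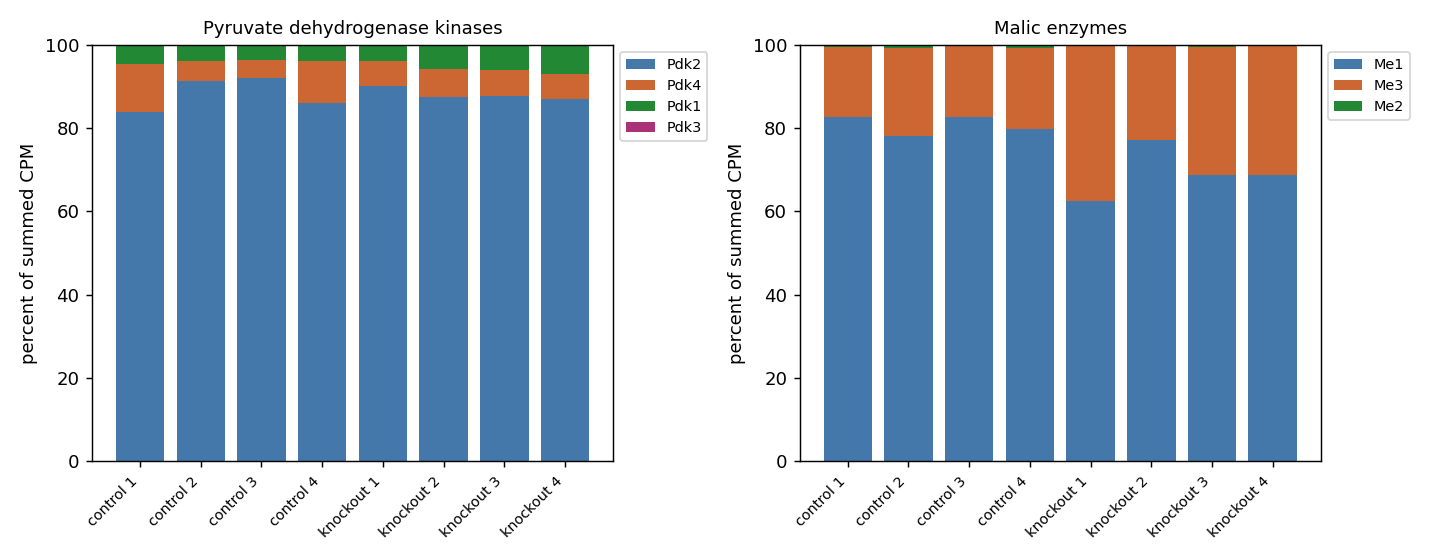
Share of each kinase gene in the summed CPM of Pdk1 to Pdk4 (left, percent) and of each malic enzyme gene in the summed CPM of Me1 to Me3 (right, percent), 1 bar per library. Pdk2 is the main kinase in every library and Pdk3 is too small to see, while the share of Me3 is 16.8% to 20.9% in controls and 22.7% to 37.0% in knockouts.

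In the cycle, 4 of 16 tested genes were higher (Idh2, Idh3b, Sdhc and Sdhd) and 0 lower. DESeq2 called 3 higher and 0 lower, and 10 were higher and 0 lower at an unadjusted p under 0.05 in edgeR. The 4 called by edgeR are 25% of the cycle genes, against 15.7% of all tested genes. Of all tested genes with a mean of at least 20 CPM, 23.3% were called. An unadjusted p of this size was common among all genes. Sucla2, with the highest edgeR p of those 10 (0.0460), ranked 2920 by p among 10691 tested genes. The log2 fold change was above 0 in 15 of the 16, and the median was 0.21. The median gene stood at -0.04, 0.08, -0.01 and -0.07 on the log2 scale relative to the control mean in controls 1 to 4, and at 0.13, 0.34, 0.20 and 0.32 in knockouts 1 to 4. The shift was thus small and present in each knockout. Summed over the 16 genes, the level was 6112 ± 296 CPM in controls and 7089 ± 392 in knockouts (SD, n = 4 each), with the lowest knockout at 6548 and the highest control at 6540. The largest part of this sum came from Mdh2, which did not pass the threshold, with means of 2445 CPM in controls and 2825 in knockouts. The sum therefore weighs a few abundant genes most. The number of higher genes fell to 1 without knockout 2, knockout 4 or control 4 and to 2 without knockout 3 or control 3, and was 6 without knockout 1. Idh2 was called in all of these fits.

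Idh2, the mitochondrial isocitrate dehydrogenase that makes NADPH, had the strongest change of the cycle among well-counted genes. It lies on chromosome 7 (80094846 to 80115392, minus strand). It stood at 137.2, 180.0, 171.3 and 153.2 CPM in controls 1 to 4 and at 402.2, 265.1, 225.7 and 301.2 in knockouts 1 to 4. All knockouts were above all controls, knockout 1 far above the rest, and the mean went from 160.4 ± 19.1 to 298.6 ± 75.7 CPM (mean ± SD of 4; log2 fold change 0.89, SE 0.16, edgeR adjusted p = 0.00245). Without knockout 1 the log2 fold change was 0.71 (edgeR adjusted p = 2.8e-05, within a range of 2.6e-18 to 0.0313 over its alternatives). The NAD-dependent isocitrate dehydrogenase, a regulated step of the cycle, is built of Idh3a, Idh3b and Idh3g. Idh3b stood at 239.1, 269.4, 244.7 and 229.9 CPM in controls and at 267.5, 321.8, 278.3 and 324.0 in knockouts, with control 2 just above knockout 1. Its call (log2 fold change 0.28, SE 0.09, edgeR adjusted p = 0.0311) was lost without control 1 (0.0744), control 3 (0.0912), control 4 (0.0804), knockout 2 (0.115) or knockout 4 (0.144), within a range of 0.0128 to 0.144. Idh3b shares exon sequence with Nop56 on the opposite strand, which had 887 reads in the 8 libraries against 10762 for Idh3b, and no source used here gives the strand setting of the counting. Idh3a had a log2 fold change of 0.21 (95% interval 0.03 to 0.39) and Idh3g of -0.07 (-0.27 to 0.12), and neither passed the threshold.

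**Figure D3:**
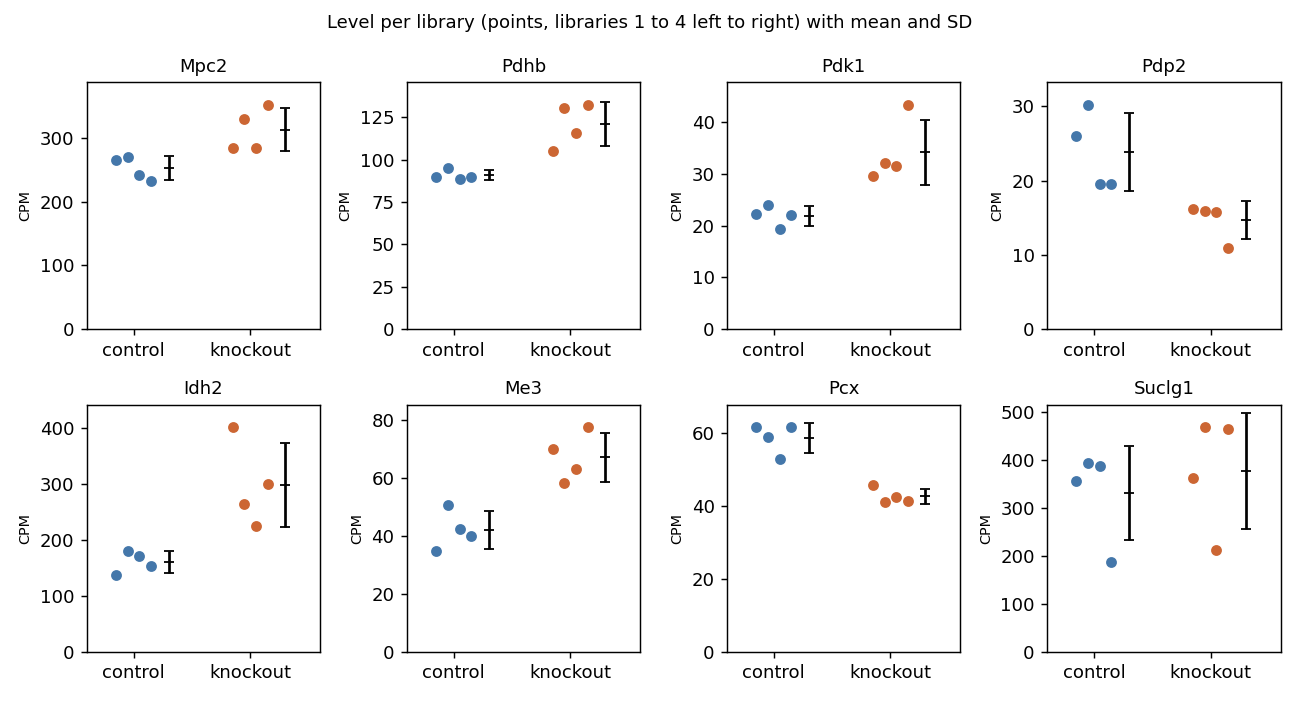
Level in CPM of 8 genes in each library (points, libraries 1 to 4 from left to right), with the mean and SD of each group of 4. In Mpc2, Pdhb, Pdk1, Idh2 and Me3 every knockout is above every control, in Pdp2 and Pcx every knockout is below, and Suclg1 has 1 low library in each group.

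Some genes of the oxidative fibre types were also higher in the knockout, and others of the same list did not pass the threshold. Slow fibre markers summed to 53.4 to 105.2 CPM in controls and 208.8 to 507.8 in knockouts, with 2 of 5 tested members higher, Myl3 and Casq2, and none of the 9 listed at 0 in all libraries. The called share was 40% of these 5, against 15.7% of all tested genes. Myl3, a slow myosin light chain that gave most of that sum in the knockouts, stood at 7.75, 33.4, 26.0 and 27.7 CPM in controls and at 398.4, 171.5, 148.1 and 158.1 in knockouts, again highest in knockout 1. The other tested slow fibre genes, added after their values were seen, had log2 fold changes of 1.09 (Tnnt1, SE 0.89), -0.03 (Tpm3, SE 0.16) and -0.14 (Atp2a2, SE 0.17), all with overlapping groups. The slow myosin Myh7 was near the floor in both groups, 1.24 ± 1.55 and 1.19 ± 1.58 CPM (SD, n = 4 each). Myh2, the myosin of fast oxidative fibres, chosen after its values were seen, stood at 213.0, 535.7, 374.7 and 252.6 CPM in controls and at 1394, 805.3, 540.9 and 1054 in knockouts. It ranked the 8 libraries in the same order as Idh2 did, within libraries that share depth and scaling. In both genes every knockout was above every control, so only the order within each group of 4 was free to differ. The difference of Myh2 missed the threshold (log2 fold change 1.46, SE 0.41, edgeR adjusted p = 0.0644). Myh2 was called with DESeq2 (adjusted p = 0.00729), limma voom (0.000496), no robust estimation (0.000419) and without control 2 (0.0475), within a range of 0.000419 to 0.147. Of 10 tested fast fibre genes, which include Myh2, the light chain Mylpf was higher (log2 fold change 0.43, SE 0.09), and Myh4, the myosin of the fastest glycolytic fibres, was lower (log2 fold change -0.31, SE 0.09, edgeR adjusted p = 0.0128). Called genes were 20% of this list, against 15.7% of all tested genes. The part of fibre type in the Idh2 result was not tested.

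**Figure D4:**
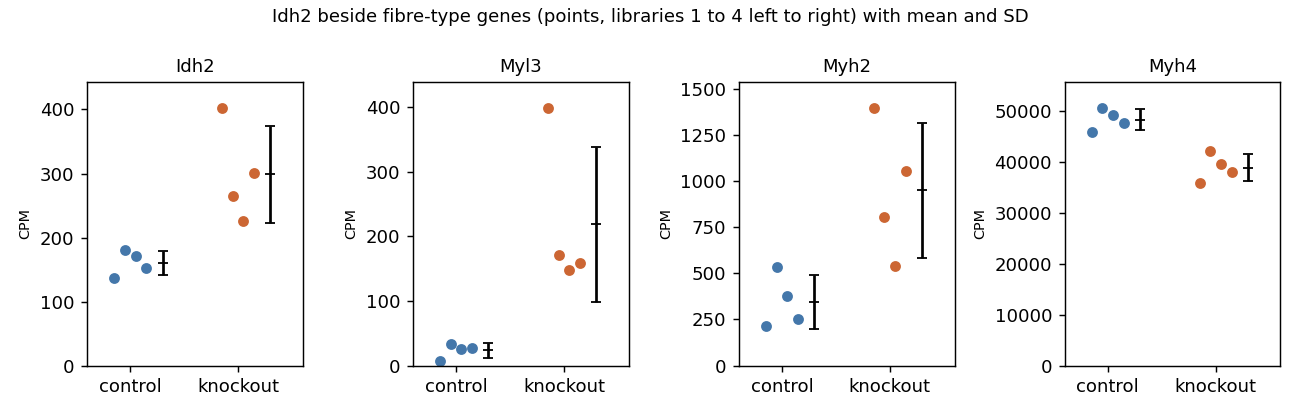
Level in CPM of Idh2, of the slow light chain Myl3 and of the fast myosins Myh2 and Myh4 in each library (points, libraries 1 to 4 from left to right), with the mean and SD of each group of 4. Knockout 1 is the highest library for Idh2, Myl3 and Myh2 and the lowest for Myh4.

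Succinate dehydrogenase, which is also complex II of the respiratory chain, has 4 subunits, the catalytic Sdha and Sdhb and the membrane anchors Sdhc and Sdhd. Sdhc stood at 267.3, 198.0, 203.8 and 204.1 CPM in controls and at 218.7, 321.8, 289.1 and 314.7 in knockouts. Control 1 was high and knockout 1 low, so the groups overlapped, and the call (log2 fold change 0.39, SE 0.12, edgeR adjusted p = 0.0310) was lost with library totals alone (0.116). It was also lost without control 2, 3 or 4 (0.123, 0.101 and 0.119) or without knockout 2, 3 or 4 (0.0929, 0.0754 and 0.105), within a range of 0.000863 to 0.123. Sdhd had 7, 5, 14 and 7 reads in controls and 12, 19, 23 and 16 in knockouts, near the floor. Its mean in controls was 1.68 CPM, against 218.3 for Sdhc, and whether the counting lowered the Sdhd values was not tested. Control 3 was above knockout 1, and the Sdhd call (log2 fold change 1.03, SE 0.33, edgeR adjusted p = 0.0355) was lost with DESeq2 (0.144) and without control 1, 2 or 4 (0.0795, 0.117 and 0.08) or knockout 2, 3 or 4 (0.0801, 0.117 and 0.0723), within a range of 0.0152 to 0.144. Sdha (log2 fold change 0.18, 95% interval 0.01 to 0.35) and Sdhb (0.13, -0.06 to 0.32) did not pass the threshold.

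The remaining enzymes of the cycle had small positive values that did not pass the threshold. Citrate synthase (Cs), the entry step, had 205.1 ± 13.7 CPM in controls and 238.1 ± 17.9 in knockouts (mean ± SD of 4; log2 fold change 0.22, edgeR adjusted p = 0.0889), and was called without knockout 1 (0.0375, within a range of 0.0375 to 0.252). Mitochondrial malate dehydrogenase (Mdh2), which gave the most reads of the group, stood at 2301, 2571, 2380 and 2530 CPM in controls and at 3153, 2666, 2682 and 2800 in knockouts. Its groups did not overlap, but the difference missed the threshold (log2 fold change 0.21, edgeR adjusted p = 0.0993). Of the 2-oxoglutarate dehydrogenase complex, Dlst had a log2 fold change of 0.27 (adjusted p = 0.0789, and 0.0278 without control 2 and 0.0153 without knockout 1, within a range of 0.0153 to 0.261), and Ogdh one of 0.06 (95% interval -0.11 to 0.23). Fumarase (Fh1) stood at 178.1, 114.1, 122.0 and 130.5 CPM in controls and at 119.6, 176.1, 156.4 and 170.4 in knockouts. Control 1 was above all knockouts and knockout 1 below 3 of the controls, and Fh1 was called without control 1 (log2 fold change 0.35, adjusted p = 0.0409, within a range of 0.0409 to 0.716), against 0.19 with all libraries.

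Succinyl-CoA ligase joins the alpha subunit Suclg1 to an ATP-forming beta subunit, Sucla2, or a GTP-forming one, Suclg2. Suclg1 had 1649, 1945, 1980 and 886 reads in controls 1 to 4 and 1733, 2451, 1136 and 2181 in knockouts 1 to 4. At 186.2 and 211.1 CPM, control 4 and knockout 3 stood apart from the other 6 libraries, which ran from 355.2 to 468.1, so the interval of the genotype difference was wide (log2 fold change 0.19, 95% interval -0.64 to 1.02). Sucla2 stood at 302.4, 303.2, 282.3 and 279.5 CPM in controls and at 320.5, 333.2, 309.0 and 348.4 in knockouts. Every knockout was above every control, knockout 3 included (log2 fold change 0.17, edgeR adjusted p = 0.169). Suclg2 was far less counted, 9.58 ± 1.59 and 11.7 ± 2.57 CPM, and Sucla2 gave 95.9% to 97.5% of the beta subunit reads over all 8 libraries.

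Among the enzymes of malate exchange and anaplerosis, 2 of 4 tested were higher (Me3 and Mdh1) and 1 lower (Pcx). The called share of 75% rests on 4 genes, and 15.7% of all tested genes were called. Me3, a mitochondrial malic enzyme that turns malate into pyruvate and makes NADPH, lies on chromosome 7 (89632392 to 89854359, plus strand). It stood at 34.9, 50.9, 42.5 and 40.1 CPM in controls and at 70.0, 58.2, 63.2 and 77.7 in knockouts. All knockouts were above all controls, and the difference was well past the threshold (log2 fold change 0.67, SE 0.11, edgeR adjusted p = 0.000164). Me1, the cytosolic malic enzyme, stood at 164.4 to 203.6 CPM in controls and 118.1 to 197.8 in knockouts, and its log2 fold change of -0.21 (95% interval -0.49 to 0.07) did not pass the threshold. The share of Me3 in malic enzyme reads was 16.8%, 20.9%, 17.2% and 19.5% in controls 1 to 4 and 37.0%, 22.7%, 30.7% and 30.9% in knockouts 1 to 4, without overlap. Me2 had 3 to 11 reads per library and was not tested.

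Cytosolic malate dehydrogenase (Mdh1), which serves the malate-aspartate shuttle, stood at 381.4, 460.5, 404.1 and 356.9 CPM in controls and at 511.1, 475.9, 439.6 and 524.4 in knockouts. Control 2 was above knockout 3, and the call (log2 fold change 0.28, SE 0.09, edgeR adjusted p = 0.0322) was lost without control 1, 3 or 4 (0.0852, 0.0848 and 0.1) or knockout 1, 2 or 4 (0.0651, 0.058 and 0.138), within a range of 0.00631 to 0.138. Pcx, pyruvate carboxylase, which makes oxaloacetate from pyruvate, lies on chromosome 19 (4510472 to 4621752, plus strand). It stood at 61.6, 59.0, 52.9 and 61.6 CPM in controls and at 45.7, 41.1, 42.5 and 41.4 in knockouts. Every knockout was below every control, with little spread within either group (log2 fold change -0.46, SE 0.09, edgeR adjusted p = 0.00121).

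Pcx and Me1 are also abundant in fat, and marker levels of other cells were read beside them. Of 6 tested adipocyte markers 0 passed the threshold in edgeR's test, 0 had an unadjusted p under 0.05 and DESeq2 called 0. Their summed level was 224.4 to 424.3 CPM in controls and 314.2 to 393.0 in knockouts, and Ucp1 was at 0 in all libraries. Most of this sum came from Fabp4, with means of 259.8 CPM in controls and 302.7 in knockouts. Adipoq had 23.0 in both, and these 2 genes were chosen after their values were seen. Macrophage markers had 3 of 7 tested members lower (Csf1r, C1qb and Cd163), with a summed level of 71.1 to 117.7 CPM in controls and 52.7 to 82.5 in knockouts, and none of the 8 listed was at 0 in all libraries. Fibroblast markers had 1 of 6 lower, Dcn, with sums of 495.2 to 609.1 and 441.8 to 537.5 CPM. Called genes were 42.9% of the tested macrophage list and 16.7% of the fibroblast list, against 15.7% of all tested genes. The part of adipocytes, macrophages and fibroblasts in the values of Pcx, Pdp2 and Me1 was not tested.

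**Figure D5:**
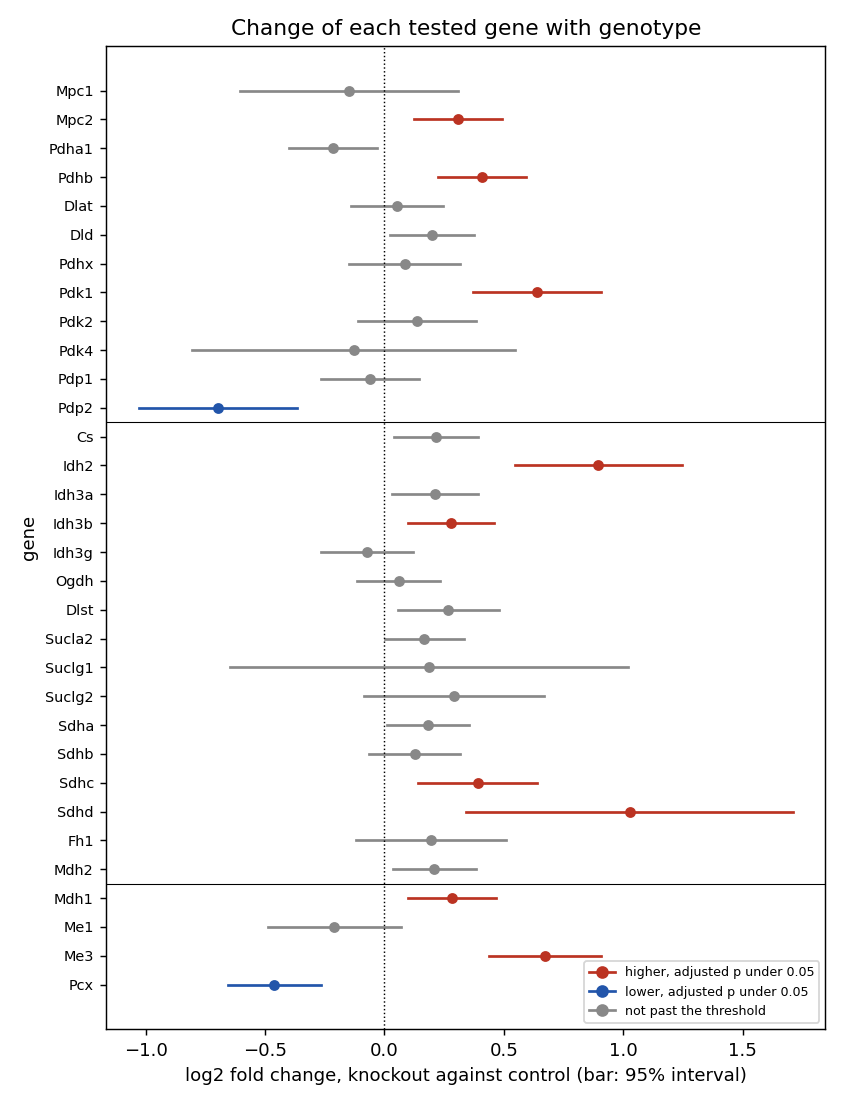
Log2 fold change of knockout against control for the 32 tested genes (points) with 95% intervals from edgeR (bars), in the order pyruvate entry, cycle, and malate and anaplerotic enzymes, coloured by the call at an adjusted p of 0.05. Of the 32 points 24 lie above 0, Sdhd and Idh2 lie farthest to the right at 1.03 and 0.89, and Pdp2 lies farthest to the left at -0.70.

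Genes that neighbour these steps were read from lists of related enzymes, carriers and regulators. In the list of lactate dehydrogenases and monocarboxylate transporters, 4 of 6 tested were higher and 0 lower, with 1 lower at an unadjusted p under 0.05 (Ldha) and 0 lower with DESeq2. That is 66.7% called in a list of 6, against 15.7% of all tested genes. Ldhb, the lactate dehydrogenase subunit of oxidative tissues, stood at 10.3 to 13.9 CPM in controls and 21.2 to 30.8 in knockouts, and rose (log2 fold change 1.12, SE 0.15, edgeR adjusted p = 7.07e-06). Ldha, the main muscle subunit, had a log2 fold change of -0.18 (SE 0.09, edgeR adjusted p = 0.157). The lactate and pyruvate transporter Slc16a1 rose from 12.7 ± 2.66 to 23.1 ± 2.29 CPM, and its chaperone Bsg from 517.7 ± 18.6 to 1021 ± 69.7 CPM (SD, n = 4 each). Slc16a3, a far more counted transporter chosen after its values were seen, stood at 633.3 ± 97.1 CPM in controls and 652.0 ± 27.2 in knockouts. Its difference did not pass the threshold (log2 fold change 0.04, edgeR adjusted p = 0.82). The D-lactate dehydrogenase gene Ldhd rose as well (log2 fold change 0.50, SE 0.12), a call lost without knockout 4 (edgeR adjusted p = 0.0536, within a range of 0.00261 to 0.0536).

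Among 24 tested genes for other reactions around the cycle, 4 were higher and 1 lower, with a median log2 fold change of 0.02. That is 20.8% called, against 15.7% of all tested genes and 23.3% of those with a mean of at least 20 CPM. Oxct1, which activates ketone bodies, stood at 352.4, 422.4, 398.0 and 350.6 CPM in controls and at 267.1, 170.3, 171.9 and 214.8 in knockouts. All knockouts of Oxct1 were lower than all controls (log2 fold change -0.89, SE 0.12, edgeR adjusted p = 0.000101). Acss2, a cytosolic acetate-activating enzyme (log2 fold change 0.79, SE 0.18), and Gpt, an alanine aminotransferase that makes pyruvate (0.65, SE 0.15), rose. Bdh1, which interconverts ketone bodies, rose too (0.65, SE 0.20), but its call was lost in 6 of 17 alternatives, with an adjusted p up to 0.119. Of the 3 tested carriers of cycle intermediates 0 were called by edgeR or DESeq2 and 1 had an unadjusted p under 0.05. Of 11 tested genes for lipoate and cofactor assembly 1 was higher (9.09%), the succinate dehydrogenase assembly factor Sdhaf4 (log2 fold change 0.59, SE 0.14).

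Of 17 tested regulators of mitochondrial genes, 3 were higher and 2 lower, a share of 29.4% against 15.7% of all tested genes. Ppargc1a, the coactivator known to raise oxidative genes in muscle, stood at 44.8, 37.9, 44.4 and 46.7 CPM in controls and at 42.1, 42.0, 43.8 and 43.3 in knockouts. Its knockouts lay within the range of the controls (log2 fold change -0.02, 95% interval -0.22 to 0.18), and Esrra, its partner receptor, had a value of 0.09 (SE 0.10). Hif1a, the hypoxia factor known to induce Pdk1, fell from 20.2 ± 0.818 to 13.8 ± 0.798 CPM (SD, n = 4 each; edgeR adjusted p = 0.00387). Gabpa, a nuclear respiratory factor subunit, fell as well (log2 fold change -0.79, SE 0.21), a call lost without control 4 (adjusted p = 0.0525, within a range of 0.00787 to 0.0525). Tfam, which maintains mitochondrial DNA (0.44, SE 0.13), and the receptors Esrrg (0.57, SE 0.19) and Esrrb (0.94, SE 0.32) were higher, with calls lost in 5, 7 and 10 alternatives and edgeR adjusted p up to 0.103, 0.158 and 0.194. DESeq2 called none of these 3, and its calls among the regulators were the 2 lower ones.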

How the data were processed

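For each library the authors deposited a table of unnormalized counts keyed by Ensembl identifier, per the file headers. Tools named in the submitters' processing notes are Subread 1.6.2, featureCounts and Bowtie2 2.3.4.1, and the builds are mm10 and GRCm38. No source used here gives the annotation release, the strand setting or the handling of reads with several matches, so overlapping genes and near copies have uncertain counts. Names and coordinates are from GENCODE M21 (54409 of 54532 genes named).

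Groups came from the genotype labels and replicate numbers from accession order, which pairs no samples. Counts were fitted across all genes in R 4.3.3 with edgeR 4.0.16 (filterByExpr with a minimum count of 10 and total of 15, TMM scaling, robust quasi-likelihood F test of genotype, Benjamini-Hochberg adjustment, threshold 0.05). The procedure was tested on simulated data. SE was obtained as |log2 fold change| over √F, and intervals are at 95%. Chi-square per degree of freedom between libraries of a genotype was 2.33 to 7.96, so none were duplicates. The genes, their 3 groups and the related lists were chosen with earlier results of these data known. Genes were named by rule: all 34, Gpcpd1, the called genes of lowest p in each related list (at most 6), Ppargc1a and Esrra, with others marked as chosen later, and Ldha was also added after its value was seen. 1 gene that this rule takes is not reported here. Alternatives were DESeq2 1.42.0, limma 3.58.1 voom, other scalings and filters, no robust estimation, thinning to the smallest library, and leaving out each library.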

Additional observations from a re-analysis of the deposited data

Results flagged for a closer look

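In 68 groups of 4 values (34 genes in 2 genotypes), 2 had a library whose gap to its nearest neighbour exceeded Dixon's 95% critical value as a share of the group's range, which chance alone gives in about 1 in 20 groups. Pdp2 in knockout 4 stood at 10.9 CPM, with the other knockouts at 15.8 to 16.1. Sdhc in control 1 stood at 267.3 CPM, with the other controls at 198.0 to 204.1, and the call of Sdhc is among those that other libraries decide.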

How the results depend on the processing

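All 17 alternatives were run. Of the called genes, Pdhb, Pdk1, Pdp2, Idh2, Me3 and Pcx had the call in each of them. The number of lower genes in pyruvate entry was 2 with library totals alone, and ranged from 1 to 2 when 1 library was left out. Leaving out 1 library gave 1 to 6 higher genes in the cycle and 1 to 2 in the malate group. Of the genes with no call, 5 changed sign when 1 library was left out, and their log2 fold changes ranged from -0.33 to 0.054 (Mpc1), -0.025 to 0.157 (Pdhx), -0.342 to 0.057 (Pdk4), -0.002 to 0.107 (Ogdh) and -0.014 to 0.385 (Suclg1). Ppargc1a ranged from -0.093 to 0.010. The cause of these changes was not tested. Among all tested genes, leaving out 1 library gave 720 to 967 higher and 578 to 761 lower calls. The low read numbers of Sdhd, Pdk3 and Me2 limit what can be said of them. No paired analysis was possible because the labels give no replicate numbers shared between the genotypes.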
